A study of Mus musculus with 4 samples.

Results

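The transcripts described here are those of 32 genes of cardiac muscle, followed by symbol among the 34097 genes counted in each library. They cover the myosin and actin filaments (Myh6, Myh7, Myl2, Myl3, Myl4, Myl7, Actc1), the troponin and tropomyosin switch (Tnnt2, Tnni3, Tnnc1, Tpm1), the Z-disc and giant proteins (Ttn, Mybpc3, Actn2, Csrp3, Tcap, Des), calcium handling (Ryr2, Atp2a2, Pln, Sln, Slc8a1, Casq2), the natriuretic peptides and their companion stress gene (Nppa, Nppb, Ankrd1), energy and oxygen supply (Mb, Ckm, Ckmt2, Fabp3) and the small heat shock proteins (Cryab, Hspb7). They were listed by name, with earlier results of these data known. UMIs (unique molecular identifiers, each standing for 1 captured transcript) were counted inside droplets rich in cardiomyocyte transcripts, meaning at least 20 UMIs of Myh6, Tnnt2, Ttn and Ryr2 together, and in droplets gated as T cells, macrophages or endothelial cells by other genes.

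The libraries came from transplanted mouse hearts taken on day 5 and dissociated with enzymes before 3′ single-cell RNA sequencing on the 10x Chromium system. By the labels 3 libraries are allogeneic, meaning donor and recipient differ in tissue antigens (replicates 1, 2 and 3), and 1 is isogeneic, meaning they are matched (labelled replicate 2). Neither strains, sex, age, genotype nor any sort is given in the labels, and nothing there says that the replicates were separate animals, so p-values measure the spread between these libraries, which may be technical. The isogeneic group is 1 library, so each test against it assumes that this library varies as the allogeneic ones do.

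Cardiac muscle shortens when myosin heads of the thick filament pull on actin. The troponin complex on tropomyosin lets this happen only when calcium in the cytoplasm rises. The calcium-handling genes listed above take part in controlling that level. Myl7, Myl4 and Sln are used in the atria of the adult mouse heart, and Myl2, Myl3 and, mainly before birth, Myh7 in the ventricles. Nppa is atrial in the healthy adult and is switched on again in stressed ventricles. A cardiomyocyte is large and often breaks during dissociation, and RNA of broken cells can be captured in droplets that hold another cell.

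The 4 libraries held 6160, 8396, 6554 and 11473 barcodes and 51054446, 63434265, 51463909 and 100038951 UMIs (allogeneic replicates 1 to 3, then isogeneic). Between 14 and 31 barcodes were shared by any pair of libraries. Levels are given as CPM, the UMIs of a gene per 1000000 UMIs of the library or of the summed droplets. The 32 members together stood at 958, 1312 and 809 CPM in the allogeneic libraries against 851 in the isogeneic one, so the list as a whole stood in overlapping ranges. Of the 32 genes, 17 overlap a counted gene on the opposite strand in the GENCODE M21 annotation of the GRCm38 (mm10) build, among them Myl3 (with Pth1r), Tnnc1 (with Nisch), Mb (with Apol6) and Cryab (with Hspb2). The sources used here do not give the strand setting of the counting, so reads of such pairs may not be told apart.

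Most of the UMIs in the list belonged to genes that other cells of the heart use as well. The 8 members with the most UMIs over the 4 libraries were Cryab, Tpm1, Slc8a1, Atp2a2, Ankrd1, Tnnt2, Des and Nppa. UMIs are not scaled to transcript length here, so this is an order of captured molecules. Cryab, a small heat shock protein, stood at 169, 331 and 165 CPM in the allogeneic libraries against 220 in the isogeneic one, so the groups overlapped. Tpm1, tropomyosin, stood at 122, 172 and 165 against 266, with every allogeneic library lower. Slc8a1, the sodium-calcium exchanger, stood at 231, 215 and 200 against 132, with every allogeneic library higher.

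Other members showed another order of libraries. Ankrd1, a stress-responsive titin-binding protein, stood at 65.1, 106 and 15.3 CPM in allogeneic replicates 1, 2 and 3 and at 7.19 in the isogeneic library. Tnnt2, cardiac troponin T, stood at 37.7, 56.4 and 14.3 against 8.48. Actc1, cardiac actin, stood at 26.5, 41.0 and 7.54 against 3.04. In these 3 genes replicate 2 was highest, replicate 3 was the lowest allogeneic library, and the isogeneic library was lower still. Nppa, atrial natriuretic peptide, stood at 14.9, 45.6 and 21.1 against 2.06. Myh6, the fast myosin heavy chain of the adult mouse heart, broke this order, at 17.8, 4.07 and 3.96 against 0.160, with replicate 1 highest. The atrial Myl7 and Sln broke it in the other way, at 0.666, 1.59 and 9.07 against 0.110 and at 0.196, 0.300 and 6.84 against 0.0300, with replicate 3 highest.

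In the whole libraries 22 of the 32 members were higher in every allogeneic library than in the isogeneic one, and over all 28000 genes with UMIs that was the case for 29.4%. Casq2, Tpm1, Des and Atp2a2 were lower in every allogeneic library, as were 35.8% of all genes. Bulk sums of this kind cannot tell fewer cells of a type apart from less RNA per cell. No member passed edgeR's quasi-likelihood test (0 of 32 tested at an adjusted p under 0.05), and neither did any of the 20354 genes tested (0.0% higher, 0.0% lower). At an unadjusted p under 0.05 there were 7 members and 3506 genes (17.2%). The 7 were Actn2, Nppa, Tnni3, Myh6, Mb and Slc8a1, with higher fitted levels in the allogeneic group, and Tpm1 with a lower one. The median fitted difference was 2.12 on the log2 scale over the members and 0.03 over all genes tested. Allogeneic replicate 3 decided this count: more members passed without it, and more passed with DESeq2 on all 4 libraries. The share of all genes passing under these settings is not given, so this is no result about the members alone.

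A large share of these UMIs lay in droplets that were not rich in cardiomyocyte transcripts. To see the remaining members apart from the 5 with the highest levels in fibroblast droplets of every library (Cryab, Tpm1, Slc8a1, Atp2a2 and Des, set aside after their values were seen), the other 27 members were summed. Of their UMIs, 5.87%, 27.3% and 37.0% lay in cardiomyocyte-transcript-rich droplets in allogeneic replicates 1, 2 and 3 and 1.43% in the isogeneic library. Myh6, Tnnt2, Ttn and Ryr2, which select these droplets, are among the 27 members, so this share is partly set by the selection. Gated macrophages held 26.1%, 15.6% and 5.34% of them in the allogeneic libraries against 13.5% in the isogeneic one. T cells held 8.92%, 5.74% and 2.41%, and 0.0507% in the isogeneic library, where T cells were few. Endothelial cells held 8.69%, 6.77%, 4.78% and 6.1%. Fibroblasts held 38.4% in the isogeneic library and 10.3% in replicate 3, the libraries with the most fibroblast droplets (4568 and 1416), and 0.487% and 0.329% in replicates 1 and 2. The largest share in each allogeneic library, 49.0%, 43.4% and 37.8%, lay in other barcodes, against 28.7% in the isogeneic library. Other barcodes reached no gate, reached 2 gates or did not pass the droplet filter. The remainder lay in droplets of mural cells and neutrophils.

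**Figure D1:**
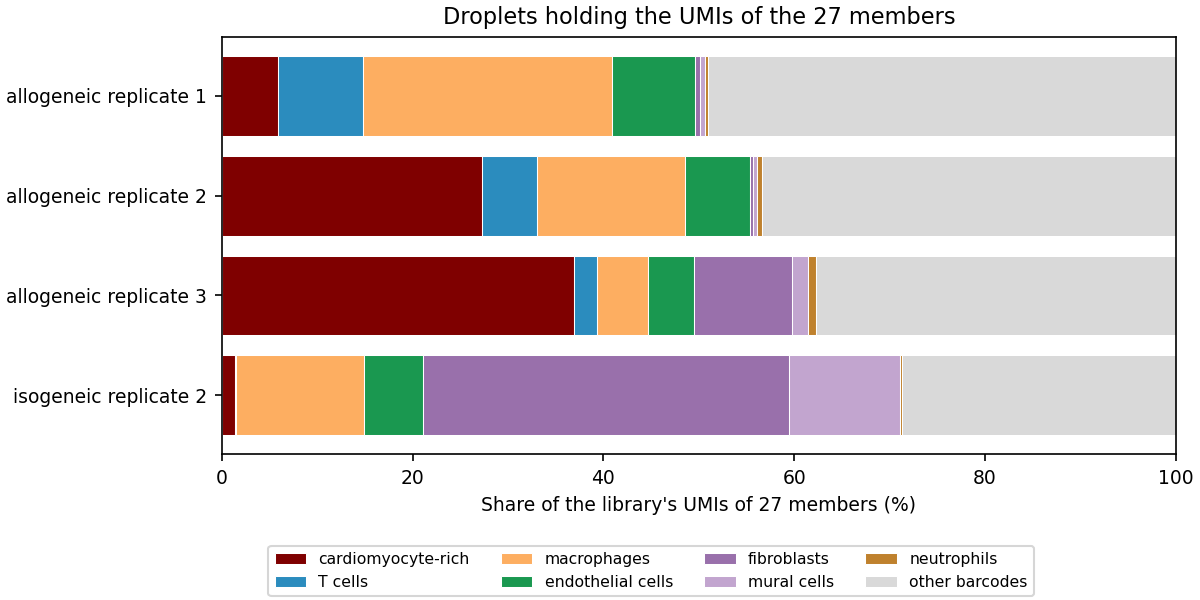
Share of the UMIs of 27 members (all but Cryab, Tpm1, Slc8a1, Atp2a2 and Des) by the kind of droplet that holds them, in percent of each library's UMIs of these genes, 1 bar per library. Cardiomyocyte-transcript-rich droplets held 1.43% in the isogeneic library and between 5.87% and 37.0% in the allogeneic ones. The genes that select these droplets are among the 27, so this share is partly set by the selection.

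Droplets rich in cardiomyocyte transcripts were rare, 53 of 32583 barcodes. Allogeneic replicate 1 had 7 (0.114% of its barcodes, 95% Wilson interval 0.0551 to 0.234%), replicate 2 had 37 (0.441%, 0.320 to 0.607%), replicate 3 had 5 (0.0763%, 0.0326 to 0.179%) and the isogeneic library had 4 (0.0349%, 0.0136 to 0.0896%). Replicate 2 thus lay above the other 3 libraries beyond counting error, and the intervals of replicate 3 and the isogeneic library overlapped. These intervals and all others given here cover counting error only. No test between groups was made, because 3 of the 4 libraries had fewer than 20 such droplets. The 8 droplets just below the threshold, with 18 or 19 UMIs of the 4 genes, held 38 to 419 member UMIs (median 136.5), and the 11 just above it, with 20 or 21, held 34 to 1020 (median 179.0), so the ranges on the 2 sides overlapped.

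The 4 droplets of the isogeneic library went against the name cardiomyocyte. Of the 32 members, 19 had no UMI in them, including Myl2, Myl3, Tnni3, Tnnc1, Actc1, Pln and Mb. They were selected largely by Ttn, which gave 69 UMIs, beside 15 of Tnnt2, 4 of Ryr2 and 1 of Myh6. Members were 0.380% of their UMIs (median) against medians of 7.02%, 8.46% and 11.8% in the allogeneic libraries. Of these 4, 2 reached the endothelial gate and 1 the fibroblast gate, and 5 of 5 further endothelial markers and 4 of 4 further fibroblast markers had UMIs. Markers of other cells were also read in the allogeneic droplets. Endothelial markers stood at 701, 379 and 581 CPM in replicates 1 to 3 against 7227 in the isogeneic droplets. Fibroblast markers stood at 35.1, 18.8 and 14350 against 2096, and macrophage markers at 11040, 5723 and 12660 against 903. Of these lists, the endothelial one was highest in the isogeneic droplets. With droplets that reach another gate left out, 5, 23 and 3 remained in the allogeneic libraries against 1 in the isogeneic one.

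Within the allogeneic libraries the 49 droplets fell into 2 kinds by the gene that brought them past the threshold, a division made after the values were seen. In 40 droplets Tnnt2 made up most of the 4-gene count, and in 9 droplets Myh6, Ttn and Ryr2 did. The 40 held 1586 UMIs of Tnnt2 with 45 of Myh6, 17 of Ttn and 5 of Ryr2, and the 9 held 163 of Tnnt2 with 282, 294 and 104. These 4 genes define the kinds and are given as a description. Replicate 1 had 5 of the 9, replicate 2 had 3 and replicate 3 had 1, while 34 of the 40 came from replicate 2, so kind and library overlapped strongly.

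Members that played no part in the selection differed between the kinds as well, and are given without a test because the droplets of a library are not replicates. Tnnc1 and Tnni3, troponins C and I, were seen in 40 of 40 droplets of the first kind and in 3 and 5 of 9 of the second. Cryab gave 5685 UMIs in the 40 droplets and 95 in the 9. Actc1 gave 963 against 89, Csrp3 436 against 15, Tcap 271 against 11, Myl3 369 against 2, Fabp3 384 against 28 and Hspb7 370 against 28. For calcium handling the balance turned: Atp2a2, the sarcoplasmic reticulum calcium pump, gave 30 UMIs in the 40 droplets and 199 in the 9, and Slc8a1 gave 29 against 80, whereas Pln, the small regulator of that pump, gave 283 against 39. A single droplet of replicate 3 supplied 138 of the 199 Atp2a2 UMIs and 32 of the 39 of Pln, and without it the remaining 8 held 61 of Atp2a2, 73 of Slc8a1 and 7 of Pln. Mitochondrial UMIs had a median of 0.580% in the first kind and 5.33% in the second, and members were 11.9% and 2.64% of all UMIs. In replicate 3 the latter order was the opposite, with 21.5% in the 1 droplet of the second kind and 7.41% (median) in the 4 of the first. Mitochondrial share and library moved with the kind of droplet, and their part in the difference was not tested.

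**Figure D2:**
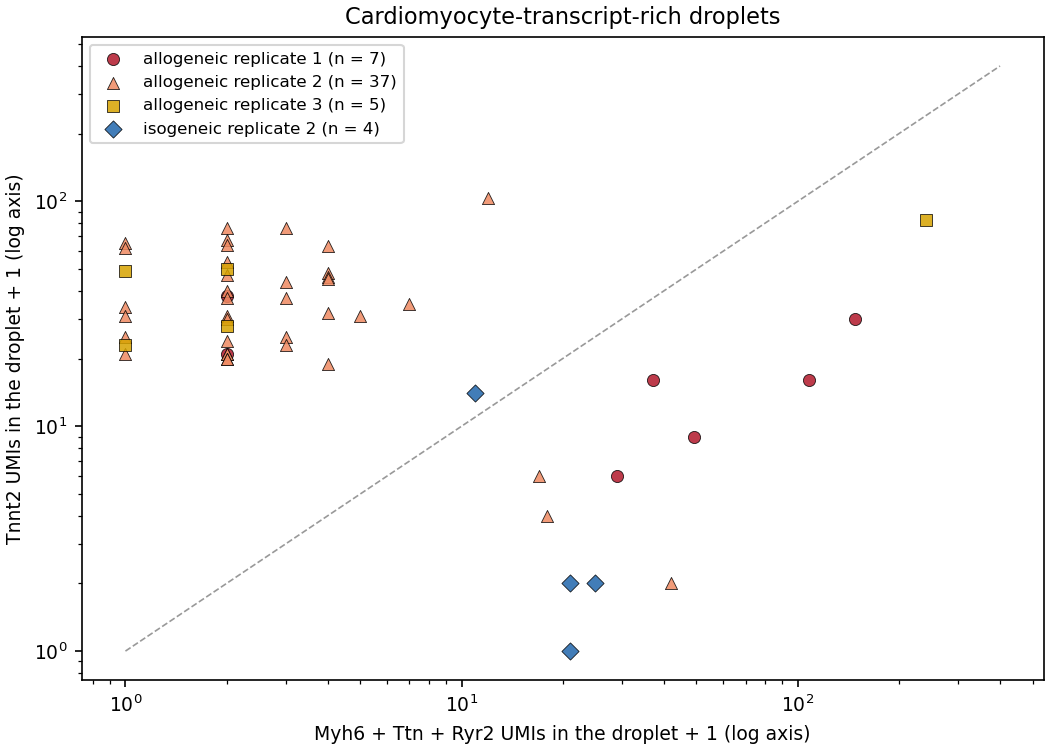
Each of the 53 cardiomyocyte-transcript-rich droplets by its UMIs of Tnnt2 (vertical) and of Myh6, Ttn and Ryr2 together (horizontal), both plus 1 on log axes, with symbols for the 4 libraries and a dashed line of equal counts. The 40 allogeneic droplets led by Tnnt2 sit at the upper left and the 9 led by the other genes at the lower right, 5 of them from replicate 1.

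In allogeneic replicate 2, which had enough of these droplets to describe per gene, 30 of 32 members had UMIs. Tnnt2, Ankrd1 and Tpm1 were seen in 37 of 37 droplets, Cryab in 36 and Csrp3, Tnni3 and Actc1 in 34 each. Tnnt2 is among the genes that select these droplets, so its values here partly follow from the selection. Cryab gave 31.5% of the member UMIs, Tpm1 14.1%, Ankrd1 12% and Tnnt2 8.80%. The droplets held 38.9% of the library's Tnnt2 UMIs, 34.1% of its Actc1, 31.6% of its Tnnc1 and 28.2% of its Ankrd1, but 0.482% of its Atp2a2 and 0.249% of its Slc8a1. Thus the pump and the exchanger, although cardiac muscle genes, lay almost wholly outside these droplets in that library. Of the 37, 14 also reached another gate (9 macrophage, 8 T cell and 1 endothelial, some both), and all 5 further macrophage markers and all 5 further T cell markers had UMIs among them, together 5723 and 833 CPM. Whether these droplets hold more than 1 cell was not tested.

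Chamber members separated the libraries. Myl7, the atrial light chain, was seen in 0 of 7, 0 of 37, 3 of 5 and 0 of 4 droplets (allogeneic replicates 1 to 3, then isogeneic), and Sln, sarcolipin, which inhibits the calcium pump in atria, in the same numbers. Myl2, the ventricular regulatory light chain, was seen in 4, 31, 2 and 0. No droplet held both Myl7 and Myl2. In replicate 3 the 3 droplets with Myl7 held 364 UMIs of it, 282 of Sln and 131 of Myl4. The 5 droplets of that library held 913 of Nppa. Of the 3 with Myl7, 1 droplet of 53043 UMIs also reached the macrophage and fibroblast gates. Nppa was also seen where Myl7 was not, in 4 of 7 droplets of replicate 1 (53 UMIs) and 25 of 37 of replicate 2 (322 UMIs), beside 23 and 345 UMIs of Myl2.

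As a share of the atrial (Myl4, Myl7, Nppa, Sln) and ventricular (Myl2, Myl3, Myh7) UMIs in these droplets, the atrial ones were 54.1% in replicate 1 (95% exact binomial interval 43.7 to 64.2%, 98 UMIs), 31.7% in replicate 2 (28.9 to 34.7%, 1021 UMIs) and 98.2% in replicate 3 (97.5 to 98.8%, 1721 UMIs). The isogeneic droplets had 0 UMIs of all 7 genes. The intervals of the 3 allogeneic libraries did not overlap. They treat the UMIs of 7, 37 and 5 droplets as separate draws and leave out the spread between droplets. In replicates 1 and 2 Nppa supplied 53 of 53 and 322 of 324 atrial UMIs, so there the share is that of 1 gene. Most of the value in replicate 3 came from 1 droplet of 10987 UMIs with 866 of Nppa, 234 of Myl7 and 166 of Sln, 11.4% of whose UMIs were mitochondrial, and without it the share was 92%. Of further chamber genes, Bmp10, Kcna5, Dkk3 and Stard10 (atrial) had 0, 0, 10 and 8 UMIs and Irx4 and Hey2 (ventricular) 0 and 0 in the droplets of replicate 3. Stard10 had 8 in those of replicate 2 as well, so it did not separate the libraries.

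Of the members with a chamber or filament role, 3 share a sequence feature just upstream of their start. RefSeq promoters (GRCm38.p6, 250 bases before to 50 after the start) were found for 28 of the 32 members, and Actc1, Myl3 and Myl7 were those with a match to CArG, the box bound by serum response factor, which 1.63% of all 32851 promoters of this length hold. They are printed as the members with this match: the atrial regulatory light chain, the ventricular essential light chain and cardiac actin. Myl2, the ventricular counterpart of Myl7, had GATAA and TATAAA but no CArG match, and it is not printed because its RefSeq windows lie outside the gene's GENCODE M21 span. Capitals mark matches to CArG, GATAA (the GATA factor core) and TATAAA on either strand.
Myl3, chr9:110763428-110763727, plus strand: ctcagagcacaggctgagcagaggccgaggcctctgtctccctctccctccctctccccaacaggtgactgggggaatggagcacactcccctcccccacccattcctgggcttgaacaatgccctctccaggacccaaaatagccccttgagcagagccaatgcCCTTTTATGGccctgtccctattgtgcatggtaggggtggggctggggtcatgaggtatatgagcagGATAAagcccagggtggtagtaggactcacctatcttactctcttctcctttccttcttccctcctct
Myl7, chr11:5898733-5899032, minus strand: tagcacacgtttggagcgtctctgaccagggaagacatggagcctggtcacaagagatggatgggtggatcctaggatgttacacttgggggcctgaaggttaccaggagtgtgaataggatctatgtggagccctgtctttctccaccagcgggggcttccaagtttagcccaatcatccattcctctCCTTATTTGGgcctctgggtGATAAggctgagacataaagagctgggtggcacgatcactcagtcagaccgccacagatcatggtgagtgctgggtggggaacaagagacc
Actc1, chr2:114052826-114053125, minus strand: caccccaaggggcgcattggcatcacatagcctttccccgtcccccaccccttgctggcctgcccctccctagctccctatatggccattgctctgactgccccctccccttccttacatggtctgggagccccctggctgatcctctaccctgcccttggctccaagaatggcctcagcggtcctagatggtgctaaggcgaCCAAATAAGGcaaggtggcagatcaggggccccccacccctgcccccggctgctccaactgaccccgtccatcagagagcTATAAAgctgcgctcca
The Myl3 and Myl7 windows each held 1 CArG and 1 GATAA match and the Actc1 window 1 CArG and 1 TATAAA match. GATAA was found in 12 of the 28 members against 25.4% of all promoters, and TATAAA in 6 of 28 against 13.6%. The MEF2 motif was found in 3 of 28 members (Casq2, Mybpc3 and Ttn) against 3.19% of promoters. A member counts if any of its promoters matches, so these shares differ in unit. A match is a description of letters, not a measured site.

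Outside these droplets, member transcripts were read in every gated class, and the origin of these UMIs was not tested. T cell droplets numbered 944, 1491 and 411 in the allogeneic libraries against 34 in the isogeneic one, macrophages 1385, 1866, 451 and 2039, and endothelial cells 268, 707, 524 and 999. In each of these class sums 5 of 5 further markers of the class had UMIs. The isogeneic T cell sum held 64333 UMIs, in which 1 UMI is 15.5 CPM and the limit that a count of 0 allows is 46.6 CPM, and 26 members had no UMI there. Fibroblast markers in it (1803 CPM) were nearly as high as further T cell markers (1959), so this sum supports no level of a member.

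The 27 members together stood at 119, 130 and 47.2 CPM in T cells of allogeneic replicates 1, 2 and 3, at 250, 261 and 92 in macrophages and at 534, 439 and 124 in endothelial cells. Of these classes T cells were lowest and endothelial cells highest in each allogeneic library. Fibroblasts lay lower still, at 87.2, 84.2 and 42.6, and mural cells higher, at 598, 517 and 513. Neutrophils stood at 323, 601 and 93.8. Actn2 and Myl4 supplied 92 of the 184 UMIs in T cells of replicate 3, and without both the T cell levels were 101, 110.4 and 23.6. In the isogeneic library macrophages stood at 86.8 and endothelial cells at 94.8. Counted per 100 droplets instead, macrophages exceeded endothelial cells in replicate 3 (90.5 against 69.7 UMIs) and in the isogeneic library (52.2 against 48.1). In replicates 1 and 2 the order of T cells, macrophages and endothelial cells was kept (302 and 254 in macrophages, 519 and 291 in endothelial cells, 151 and 117 in T cells). Median depth per droplet was lower in endothelial cells than in macrophages of every library, for example 3156 against 9284 UMIs in replicate 3.

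Among the filament genes, Tnnt2 stood at 14.1, 11.6 and 1.80 CPM in T cells of the allogeneic libraries, at 27.4, 25.5 and 10.8 in macrophages and at 59.2, 43.3 and 12.6 in endothelial cells. In the isogeneic library it stood at 9.22 in macrophages and 12 in endothelial cells, below every allogeneic library but close to replicate 3. Actc1 stood at 9.65, 6.72 and 0.256 in T cells, at 21.2, 19.5 and 5.41 in macrophages and at 51.1, 38.4 and 9.54 in endothelial cells, and in the isogeneic library at 4.24 and 14.4 in the latter classes. Its endothelial level in the isogeneic library thus lay above that of replicate 3. Tnni3, the cardiac troponin I, stood at 13.7, 12.7 and 5.19 in macrophages against 1.63, with no overlap. Myh6 was carried mainly by replicate 1, at 7.99, 1.05 and 0.513 in T cells, 13.0, 2.81 and 0.226 in macrophages and 15.4, 4.91 and 0 in endothelial cells, where a count of 0 allows up to 1.02.

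Of the stress genes, Ankrd1 was the highest in these classes of the allogeneic libraries. Ankrd1 stood at 18, 26.7 and 1.54 in T cells, 60.7, 63.8 and 13.1 in macrophages and 121, 110 and 29.3 in endothelial cells, against 6.12 and 8.47 in isogeneic macrophages and endothelial cells, with no overlap in either class. Nppa stood at 4.16, 15.8 and 0.769 in T cells, 13.2, 26.0 and 2.26 in macrophages and 43.4, 34.6 and 4.09 in endothelial cells, against 1.79 and 7.88. Its endothelial level overlapped between the groups through replicate 3. Nppb, the other natriuretic peptide, reached at most 8.46, in endothelial cells of replicate 1.

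Droplets with at least 1 UMI showed the same order. With every droplet thinned to 2000 UMIs, Ankrd1 was seen in 6.43%, 4.31% and 0.781% of T cells of the allogeneic libraries, in 11.6%, 9.51% and 2.94% of macrophages and in 17.5%, 16.0% and 6.65% of endothelial cells. In the isogeneic library it was seen in 1.16% of macrophages (95% exact interval 0.731 to 1.76%) and 0.907% of endothelial cells (0.365 to 1.86%). Unthinned shares were 16.8%, 10.3% and 1.46% of T cells, whose median depths were 10420, 7018 and 5902 UMIs. T cells are not known to use Ankrd1, but their share need not be that of RNA of broken cells in the other classes. Median depths were 7924, 5505 and 3156 UMIs in endothelial cells, and thinning evens total depth only. The endothelial shares lay above the T cell share in each allogeneic library beyond counting error. So did the macrophage shares of replicates 1 and 2. In replicate 3 the macrophage interval (1.57 to 4.97%) overlapped that of T cells (0.161 to 2.27%). The origin of the Ankrd1 UMIs in each class was not tested.

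**Figure D3:**
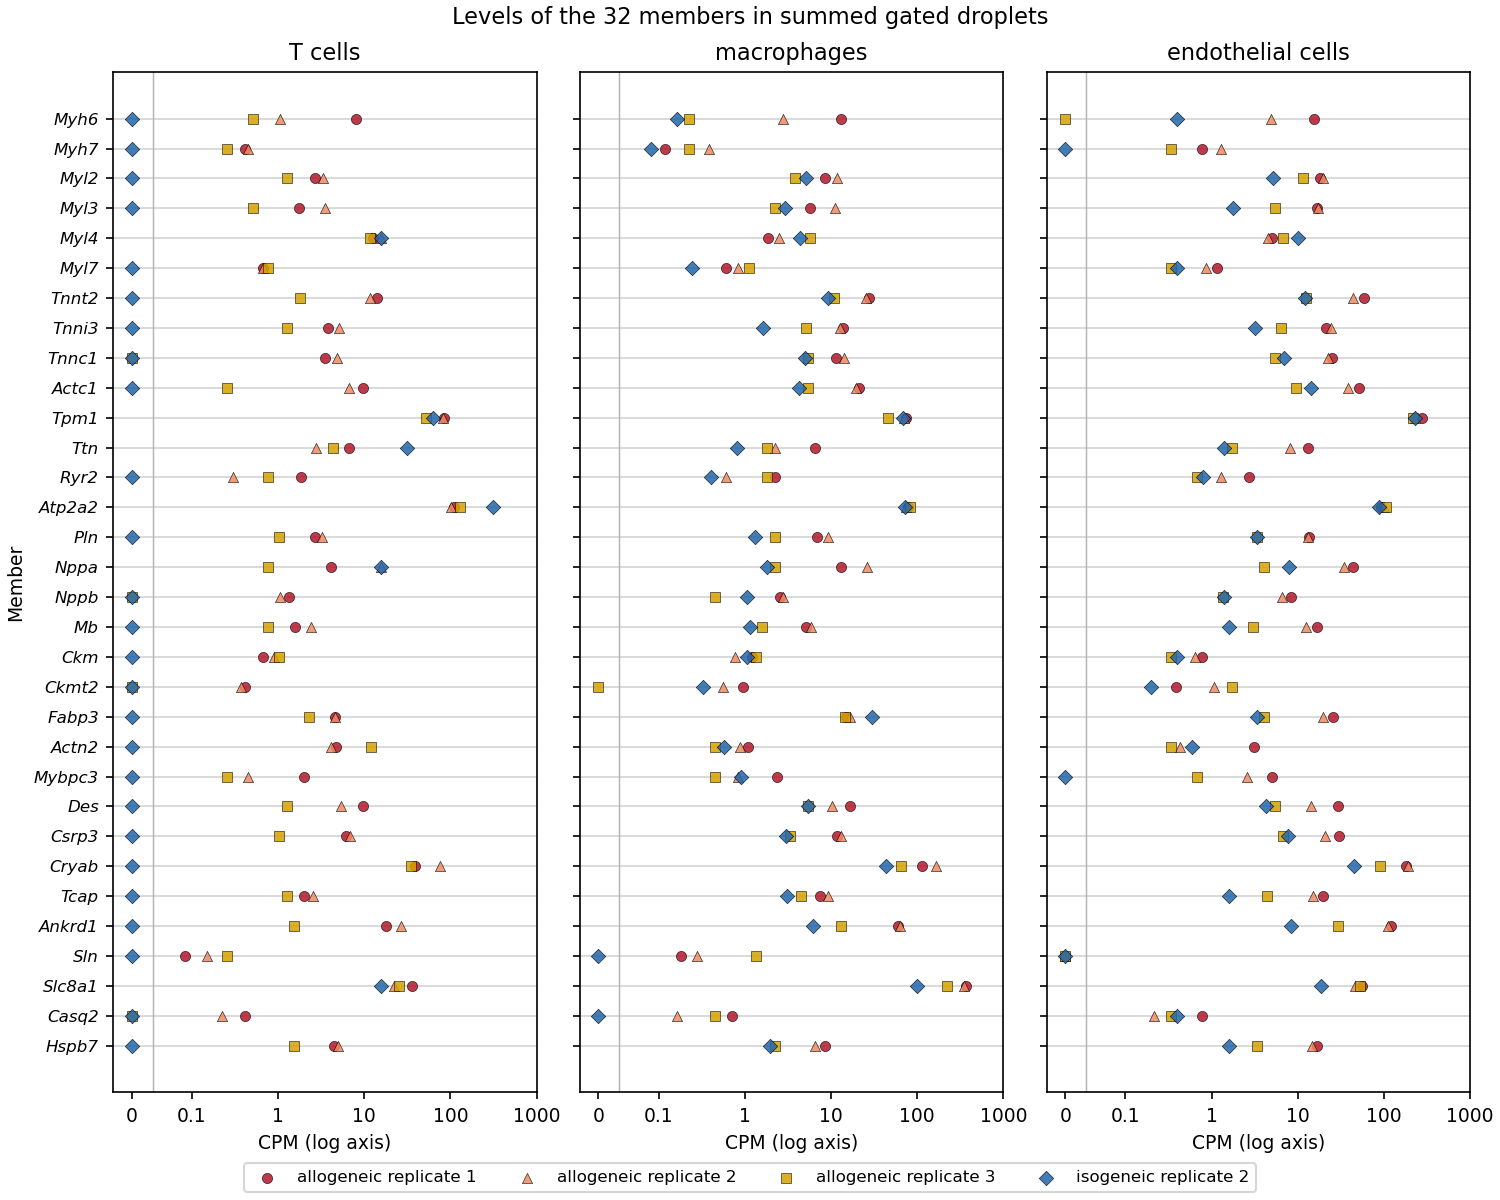
CPM (log axis, with 0 drawn left of the grey line) of each of the 32 members in summed T cell, macrophage and endothelial droplets, 1 symbol per library. Isogeneic T cells stand at 0 for 26 members because their sum holds few UMIs, and Slc8a1 in macrophages and Cryab, Tpm1 and Atp2a2 in all classes sit to the right of most others.

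Some members stood apart from this shared pattern. Slc8a1 was far higher in macrophages (368, 348 and 223 CPM in the allogeneic libraries, 99.7 in the isogeneic one) than in T cells (35.9, 22.2 and 25.1) or endothelial cells (56.1, 46.1 and 53.2, and 18.5). Fabp3, a fatty acid carrier of heart muscle, was the member whose macrophage level was higher in the isogeneic library, 30.2 against 14.9, 16.6 and 14.4, while in endothelial cells it stood at 3.35 against 25.4, 19.6 and 4.09. Actn2, the Z-disc actinin, was higher in T cells (4.74, 4.11 and 12.1) than in macrophages (1.08, 0.881 and 0.451). Myl4 was likewise higher in T cells (12.6, 15.8 and 11.5, with 15.5 from 1 UMI in the isogeneic sum) than in macrophages (1.85, 2.48 and 5.64, and 4.32). In T cells of replicate 3, where Tnnc1, Nppb, Ckmt2 and Casq2 had no UMI and Actc1 had 1, Actn2 gave 47 UMIs and Myl4 gave 45.

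Mural cells, the pericytes and smooth muscle around vessels, held a distinct subset at high level in all 4 libraries. Pln stood there at 178, 195, 174 and 311 CPM (allogeneic replicates 1 to 3, then isogeneic), Des at 406, 484, 577 and 853, Hspb7 at 78.3, 97.4, 80.8 and 90.9 and Casq2, the calcium store protein, at 64.1, 60.0, 32.3 and 99.4. Ryr2 stood at 49.8, 75.0, 12.1 and 36.5. Myl7, Sln, Ckmt2, Mybpc3 and Myh7 had no UMI in any mural sum, and Tnni3 had 1, 1, 0 and 0 UMIs. The mural sums were small (18, 44, 41 and 251 droplets), and each level is a description. In the isogeneic library 11.6% of the UMIs of the 27 members lay in mural cells, against 0.525%, 0.454% and 1.66% in the allogeneic ones.

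Between classes of the same library, most members were higher in macrophages and endothelial cells than in T cells. The fit held the library as a block and called 19 of 24 members tested higher in macrophages than in T cells and 2 lower, beside 31.7% higher and 26.7% lower among all 12827 genes tested. The largest differences on the log2 scale were those of Slc8a1 at 3.87 (SE 0.23, adjusted p 2.3e-07), Fabp3 at 2.82 (SE 0.59), Tcap, a titin cap protein, at 2.46 (SE 0.39), Tnnc1 at 2.39 (SE 0.36), Myl3 at 2.28 (SE 0.39), Myl2 at 2.23 (SE 0.29), Ankrd1 at 2.15 (SE 0.27), Tnni3 at 2.04 (SE 0.22) and Mb, myoglobin, at 1.91 (SE 0.33). Of the 19, 18 were higher in each of the 3 allogeneic libraries in CPM, and 18 were per droplet. Actn2 was lower in macrophages by a log2 difference of -2.31 (SE 0.55, adjusted p 0.0039) and Myl4 by -1.84 (SE 0.29, adjusted p 2.3e-04), both in 3 of 3 allogeneic libraries. With scaling by library totals alone, which moved the calls over all genes from 54.2% to 35.1% higher, 17 members were higher and 3 lower.

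In endothelial cells against T cells 20 of 24 members were called higher and 2 lower, beside 29.7% and 24.5% of all genes. Actc1 led at 2.75 (SE 0.31, adjusted p 1.6e-05), followed by Mb at 2.71 (SE 0.34), Myl2 at 2.69 (SE 0.30), Myl3 at 2.68 (SE 0.39), Nppb at 2.66 (SE 0.41), Ankrd1 at 2.66 (SE 0.28), Tnnc1 at 2.65 (SE 0.37), Tcap at 2.57 (SE 0.39) and Tnni3 at 2.39 (SE 0.23). These are the largest of the 20, and the others called higher ran down to Slc8a1 at 0.96. Of the 20 called higher, 19 were higher in each allogeneic library. Actn2 and Myl4 were lower, at -2.46 (SE 0.64) and -1.25 (SE 0.30). Ttn (0.56) and Atp2a2 (-0.37) did not pass the test. The median over the 24 members was 2.10, against 0.04 over all genes.

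Endothelial cells and macrophages, set against each other, differed in fewer members. In endothelial cells 6 of 24 were called higher and 1 lower, beside 25.8% and 26.2% of all genes. Members were thus called higher about as often as all genes were. Tpm1 was higher by 1.52 (SE 0.16, adjusted p 1.2e-05), Nppa by 0.93 (SE 0.36, adjusted p 0.0493), Nppb by 0.87 (SE 0.34, adjusted p 0.0477), Actc1 by 0.85 (SE 0.25, adjusted p 0.0137), Mb by 0.79 (SE 0.28, adjusted p 0.0312) and Csrp3 by 0.72 (SE 0.20, adjusted p 0.0111), each in 4 of 4 libraries in CPM. Per droplet this held for all but Nppa, which was higher in 3 of 4. Slc8a1 was lower, at -2.91 (SE 0.20, adjusted p 3.1e-07), in 4 of 4. Without allogeneic replicate 1 the higher calls came down to 1, and without replicate 2 and with DESeq2 to 3. With library totals alone, where 69.6% instead of 49.6% of all called genes were higher in endothelial cells, there were 13. The share of all genes tested that passed under these settings is not given. These counts are thus no result about the members alone. Tpm1 and Slc8a1 passed under every alternative run. Nppa, Nppb, Actc1, Mb and Csrp3 each lost the call under at least 1 alternative.

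**Figure D4:**
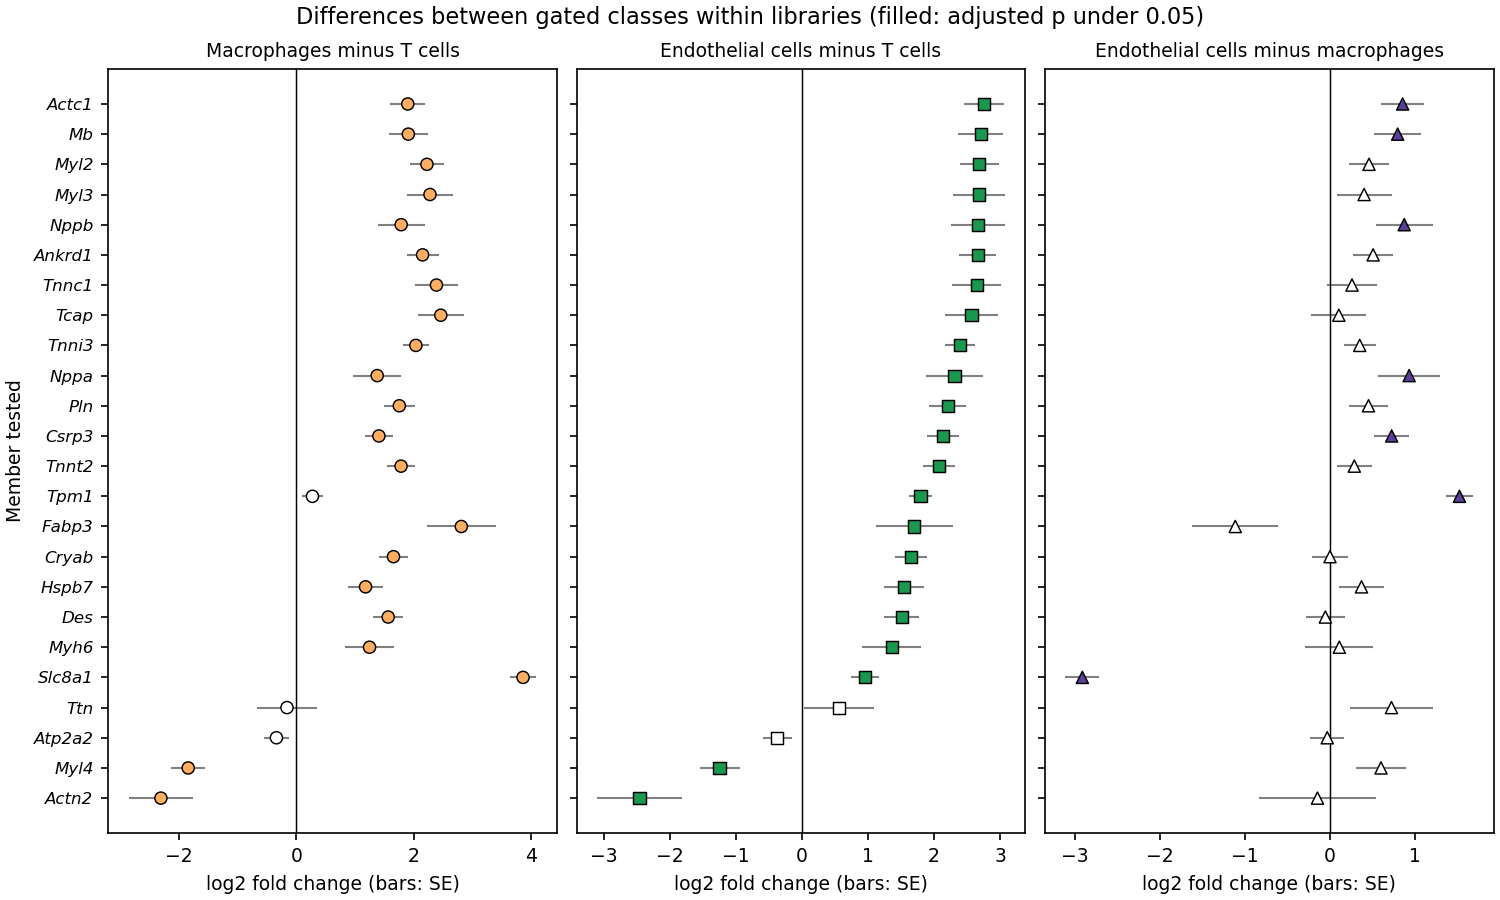
Log2 differences between gated classes of the same library for the 24 members tested, with bars of 1 approximate SE and filled symbols where the adjusted p of edgeR's quasi-likelihood test was under 0.05. Macrophages and endothelial cells stand above T cells for most members, with Actn2 and Myl4 on the other side, and Slc8a1 stands out in macrophages.

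Ratios within a library show how evenly the members moved. In replicate 1 the 19 members with at least 10 UMIs in both classes had endothelial levels 1.18 (Myh6) to 3.30 (Nppa) times those of macrophages, with a median of 2.16. In replicate 2 the 19 such members had ratios of 1.19 (Fabp3) to 3.6 (Ttn) with a median of 1.73. In replicate 3 and the isogeneic library Fabp3 was the lowest at 0.283 and 0.111, and the medians over 14 and 11 members were 1.51 and 1.93. These ratios leave out the 5 broadly used members.

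Between the groups, most members were higher in the allogeneic macrophages, but none passed the test. In macrophages 22 of 32 members were higher in every allogeneic library than in the isogeneic one (24.7% of the 22901 genes with UMIs), and 1, Fabp3, was lower in each (36.8% of all genes). With edgeR 0 of 30 members tested passed, beside 3.48% higher and 2.03% lower of 15114 genes, and 5 members had an unadjusted p under 0.05 (26.5% of all genes did). Slc8a1 had a log2 difference of 1.66 (SE 0.37, adjusted p 0.074), Tnni3 of 2.73 (SE 0.69, adjusted p 0.089), Ankrd1 of 2.95 (SE 1.02, adjusted p 0.15) and Fabp3 of -0.96 (SE 0.18, adjusted p 0.05001). The median over the members was 1.33 and over all genes -0.01. Casq2 had no UMI in isogeneic macrophages. Its allogeneic mean was at least 1.82-fold the limit of 3 UMIs in that sum, or 1.26-fold without replicate 1. The mean rests on 12, 3 and 2 UMIs, and replicate 2 (0.165 CPM) lay below that limit (0.245 CPM). Sln had no UMI in isogeneic macrophages either, and its allogeneic mean without replicate 3 lay below the limit, so no fold is given. Replicate 3 decided the count of calls here as well: more members passed without it, and more with DESeq2 on all libraries. The share of all genes under these settings is again not given.

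In endothelial cells 18 of the 31 members with UMIs were higher in every allogeneic library (21.9% of 21329 genes) and Myl4 was lower in each (37.3% of all genes). Of 25 members tested 1 passed as higher and 0 as lower, beside 4.4% and 1.93% of 13128 genes. This was Slc8a1, at 1.52 on the log2 scale (SE 0.23, adjusted p 0.0222), with 3 of 3 allogeneic libraries above the isogeneic one. Ankrd1 had a difference of 3.41 (SE 0.94, adjusted p 0.094), Cryab of 1.82 (SE 0.50, adjusted p 0.097), Myl2 of 1.74 (SE 0.45, adjusted p 0.082) and Myl3 of 2.94 (SE 0.84, adjusted p 0.10), and 10 members had an unadjusted p under 0.05 (23.4% of all genes did). Mybpc3, myosin-binding protein C, had no UMI in isogeneic endothelial cells and was at least 4.65-fold higher in the allogeneic mean against the limit of 3 UMIs in that sum, or 2.74-fold without replicate 1. Without replicate 3 more members passed, and without replicate 1 none did. The share of all genes under these settings is not given either. Further macrophage markers in the endothelial sums stood at 1961, 2048 and 1499 CPM in the allogeneic libraries against 1130 in the isogeneic one, and their part in the Slc8a1 difference was not tested.

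In T cells 0 of 26 members tested passed, and no gene did (0.0% higher and 0.0% lower of 13436), with 1 member, Atp2a2, and 1603 genes at an unadjusted p under 0.05. With 29 member UMIs in the isogeneic sum, the fitted differences of members at 0 there depend on the prior count and are not given.

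Muscle genes outside the list behaved in a mixed way. Of 32 further genes of the cardiomyocyte (listed for this purpose, such as titin-associated and sarcoplasmic reticulum proteins), 12 were tested between classes. Of these, 7 were called higher and 4 lower in macrophages than in T cells, 7 and 2 in endothelial cells against T cells, and 3 and 2 in endothelial cells against macrophages. Xirp2, an intercalated disc protein, was higher than in T cells by 2.31 (SE 0.40) in macrophages and 2.09 (SE 0.42) in endothelial cells. Gja1, the gap junction protein connexin 43, which endothelial cells also use, was higher in endothelial cells than in macrophages by 4.46 (SE 0.41). Between the groups 1 of 17 passed in endothelial cells, Cox6a2, the muscle form of a respiratory chain subunit, at 3.14 (SE 0.59, adjusted p 0.035), and none of 21 in macrophages.

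The atrial share outside muscle did not follow that inside it in replicate 3. Because Myl4 is read in T cells, the share is given without it, as Myl7, Nppa and Sln against Myl2, Myl3 and Myh7. In macrophages it was 49.4%, 53.8% and 42.9% in allogeneic replicates 1, 2 and 3 (472, 914 and 49 UMIs) and 20% in the isogeneic library (95% exact interval 13.4 to 28.1%, 125 UMIs). In endothelial cells it was 55.5%, 48.0% and 20.3% (209, 346 and 64 UMIs) and 54.5% in the isogeneic library (77 UMIs). In T cells it was 50.4%, 69.5% and 46.7% (117, 321 and 15 UMIs). In replicate 3 the share in cardiomyocyte-transcript-rich droplets was 98.1%, while the endothelial interval ran from 11.3 to 32.2%. These values differed beyond counting error of UMIs. The share inside rests on 5 droplets, and the spread between droplets is not covered. Those droplets held 77.9% of that library's Myl7 UMIs, 80.1% of its Sln and 84.1% of its Nppa, but 7.57% of its Myl2.

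**Figure D5:**
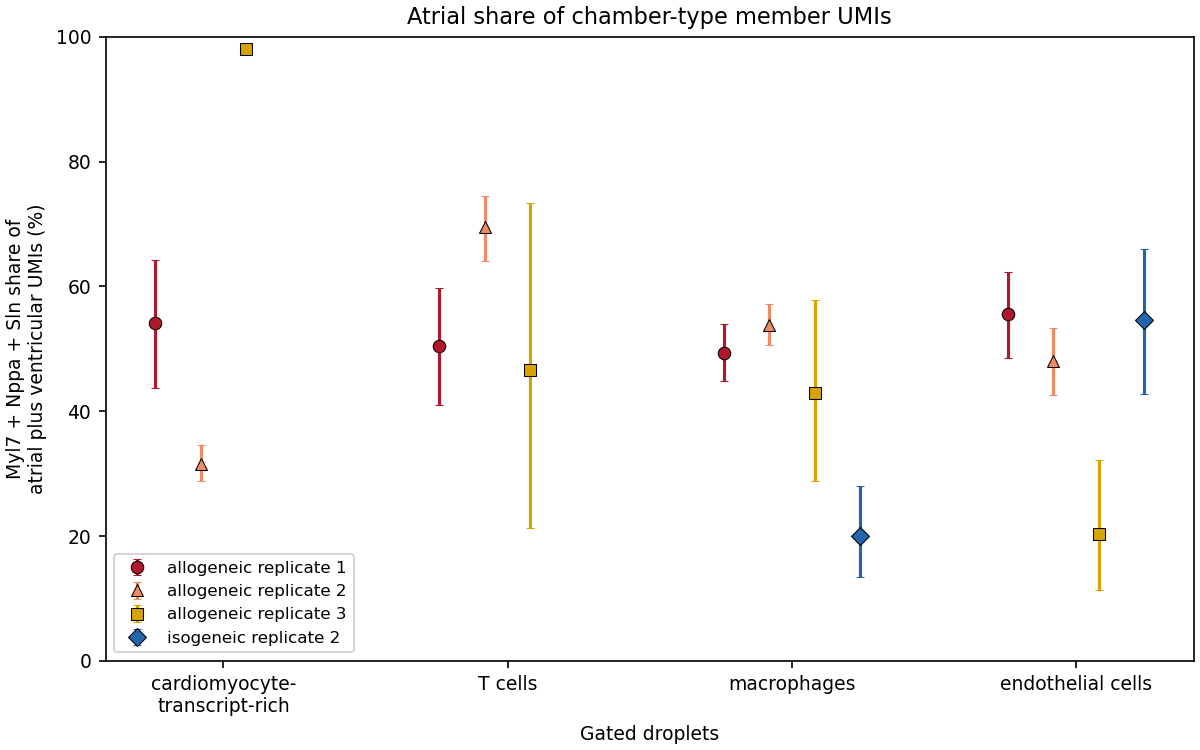
Share of Myl7, Nppa and Sln in the UMIs of these and of Myl2, Myl3 and Myh7, in percent with 95% exact binomial intervals, by gated class and library, where at least 10 such UMIs were counted. Replicate 3 stands at 98.1% in cardiomyocyte-transcript-rich droplets and at 20.3% in endothelial cells.

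Including Myl4 moved the T cell shares to 78.4%, 81.6% and 86.7% and the isogeneic macrophage share from 20% to 43.8%. Nppa was 220 of 233, 472 of 492, 10 of 21 and 22 of 25 of the Myl7, Nppa and Sln UMIs in macrophages (allogeneic replicates 1 to 3, then isogeneic), and Myl7 on its own was scarce outside muscle. Myl7 gave 10, 15, 5 and 3 UMIs in macrophages and 3, 4, 1 and 2 in endothelial cells, at most 1.15 CPM. Sln gave 3, 5, 6 and 0 UMIs in macrophages and none in endothelial cells. Myl2 in the same classes gave 142, 215, 17 and 63 UMIs and 47, 93, 34 and 26. By UMIs of the 2 regulatory light chains, Myl2 exceeded Myl7 in both classes of every library, including replicate 3.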

How the data were processed

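Single-cell RNA was measured in 4 libraries of transplanted mouse hearts on day 5 (3 allogeneic, 1 isogeneic). The deposited files hold raw UMI counts per gene and barcode, made by the authors with Cell Ranger 3.1.0 on mm10 per the submitters' processing notes, while the file headers name Cell Ranger 6.1.0. The library kit was 10x 3′ v3.1 per the labels' protocols. The 32 members and all gene lists were chosen with earlier results of these data known.

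Cardiomyocyte-transcript-rich droplets had at least 20 UMIs of Myh6, Tnnt2, Ttn and Ryr2 together. Other droplets needed 500 UMIs, 300 genes, at most 20% mitochondrial UMIs and 1 gate: T cells 3 UMIs of Cd3d, Cd3e, Cd3g and Trac, macrophages 5 of C1qa, C1qb and C1qc with 2 of Csf1r, Adgre1, Cd68, Mrc1 and Fcgr1, endothelial cells 5 of Pecam1, Cdh5, Kdr, Egfl7, Emcn and Tie1, fibroblasts 3 of Pdgfra, Tcf21, Dpt and Lum, mural cells 5 of Rgs5, Kcnj8, Abcc9, Notch3 and Myh11, and neutrophils 4 of Csf3r, Retnlg, Mmp9 and Cxcr2. No doublet caller was run, and droplets that reached 2 gates (600, 846, 836 and 1404) were left out of the class sums.

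For each library the counts of a class were added up and tested over all genes with edgeR 4.0.16 (quasi-likelihood, TMM, its expression filter, Benjamini-Hochberg, threshold 0.05), with library as a block between classes, leaving 2 residual degrees of freedom between groups and 6 between classes. The SE is the fitted log2 difference divided by the square root of F and is approximate. Levels (CPM) are UMIs per 1000000 UMIs of the sum. Alternatives were DESeq2 1.42.0, library totals, no filter, other gates and leaving out each allogeneic replicate. The fits were tested on simulated data. Intervals are 95% Wilson or exact binomial. Members were named by rule: the 8 with the most UMIs, the chamber members and up to 10 called per test, with the others by range, count or group. A limit of 3 UMIs was set for a count of 0.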

Additional observations from a re-analysis of the deposited data

Results flagged for a closer look

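Fabp3 was lower in every allogeneic library than in the isogeneic one in macrophages (14.9, 16.6 and 14.4 against 30.2 CPM) and higher in every allogeneic library in endothelial cells (25.4, 19.6 and 4.09 against 3.35). The difference between the effects, tested as an interaction in edgeR over 14502 genes, was 3.21 on the log2 scale (SE 0.84, adjusted p 0.10), and 0 of 26 members tested passed, beside 336 of all genes. The opposite directions are therefore a description, and in endothelial cells replicate 3 (4.09) stood close to the isogeneic library (3.35).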

How the results depend on the processing

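The counts of members called between groups depended most on allogeneic replicate 3. Counts in this section stand without the share of all genes called under the same setting. They show how the calls depend on the processing and are no result about the members alone. Leaving out each allogeneic replicate gave 0 to 23 higher and 0 to 4 lower in whole libraries, 0 to 20 and 0 to 2 in macrophages, and 0 to 21 and 0 to 1 in endothelial cells, the upper ends without replicate 3. DESeq2 gave 8 higher in whole libraries, 4 in macrophages and 6 in endothelial cells, and no expression filter gave 2 higher and 1 lower in macrophages and 9 higher in endothelial cells. In macrophages 1 was lower with library totals, with droplets of 5 or more gate UMIs left out and with gate numbers doubled. The cause was not tested. No alternative called a member in T cells.

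Between classes, leaving out a replicate gave 15 to 19 higher and 1 to 2 lower (macrophages against T cells), 17 to 19 and 1 to 2 (endothelial against T cells) and 1 to 4 and 1 to 2 (endothelial cells against macrophages). For the last pair library totals gave 13 higher, DESeq2 3, and no filter 3 lower. Of 237 alternatives over the 27 named differences between classes, 220 stayed past the threshold, 17 did not and 0 reversed. All 17 fell between endothelial cells and macrophages, on Nppa, Nppb, Actc1, Mb and Csrp3. Gate numbers doubled was not run for T cells, since under 20 isogeneic droplets remained. In the allogeneic libraries alone, chosen after seeing the data, 19, 21 and 8 were higher.

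Named members whose direction between groups reversed were near 0. In whole libraries Cryab (0.02) stood at -0.04 with no filter and between -0.41 and 0.18 with a replicate left out, and Myl4 (0.02) at -0.04 with no filter, -0.01 with DESeq2 and between -0.21 and 0.16 with a replicate left out. With a replicate left out Tpm1 stood between -0.24 and 0.09 in macrophages and between -0.03 and 0.18 in endothelial cells. Fitted T cell differences of single members are not given.

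With 10 gate UMIs cardiomyocyte-transcript-rich droplets were 0.357% of barcodes in replicate 1 and 0.893% in replicate 2, and with 40 they were 0.203% in replicate 2 and 0% in the isogeneic library. Leaving out droplets that reach another gate (added after seeing the data) gave 0.274% in replicate 2 and 0.00872% in the isogeneic library. The atrial share inside them was 40.6% (replicate 2) and 96.0% (replicate 3) with 10 UMIs, 70.3%, 21.1% and 99% (replicates 1 to 3) with 40, and 27.9% and 98.9% (replicates 2 and 3) without droplets of another gate. Without its largest droplet replicate 3 stood at 92%. No paired analysis was possible because the groups share only replicate number 2.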
